A study of Mus musculus with 60 samples.

Results

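The chromatin of 10 genes of the gp130 cytokine and STAT3 signalling pathway was described in mouse lumbar dorsal root ganglia. They are the cytokines Il6, Lif and Cntf, the receptor chains Il6ra, Il6st (gp130) and Lifr, the kinases Jak1 and Jak2, the transcription factor Stat3 and its feedback inhibitor Socs3. They make up 10 of the 21887 protein-coding genes of the RefSeq table for GRCm38, and they were chosen by name. Stat3 and Lifr had been among the genes with the most additional ATAC peaks after sciatic axotomy, so the ATAC counts of sciatic axotomy against sham are given as a description only. Each gene was followed by the number of deposited peaks that overlapped its gene body or the 10 kb on either side, in each of 16 peak lists. The gene table holds no exons, so positions are given as gene body, upstream or downstream.

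The mice were C57BL/6, 6 to 8 weeks old, and the L4 to L6 ganglia were taken 24 hours after surgery. Sciatic nerve axotomy (SNA) cuts the peripheral axon branch and was set against a sham operation on that nerve (Sham). Dorsal column axotomy (DCA) cuts the central branch in the spinal cord and was set against laminectomy alone (Lam), the bone removal that gives access to the cord. ATAC-seq, which finds DNA that a transposase can reach, had 3 samples of 1 mouse each per surgery, and ChIP-seq for H3K9ac, H3K27ac and H3K27me3 had 2 samples and 2 inputs per surgery, each from a pool of 10 mice. All groups received surgery, and no group without surgery was analysed here. Each deposited list pools the replicates of a surgery, so every count below is 1 value per surgery, without an SD, and no test between surgeries was possible. The labels do not describe the ganglia beyond whole tissue, in which fewer cells with an open or marked site and a weaker signal per cell cannot be told apart.

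Cytokines of this family bind a receptor complex that contains gp130, often together with LIFR, and the complex activates JAK kinases, which phosphorylate STAT3. STAT3 then enters the nucleus, and among its known targets is Socs3, whose product damps the same receptor complex. In sensory ganglia the pathway is known for its activation after injury to peripheral nerve and for its part in axon growth. H3K9ac and H3K27ac mark active promoters and enhancers, and H3K27me3 marks chromatin silenced by Polycomb.

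The ATAC lists held 153556 peaks for Sham, 174605 for SNA, 158160 for Lam and 164365 for DCA, and list size differed more among the marks. The H3K9ac lists ran from 50332 peaks (Sham) to 89647 (DCA), the H3K27ac lists from 43803 (Sham) to 75824 (SNA) and the H3K27me3 lists from 90011 (DCA) to 154055 (Lam). Read depth is unknown, since the files hold peaks and no read totals. ATAC peaks lay within 1 kb of the start site of 5 or 6 of 6 sensory neuron markers, 4 or 5 of 5 markers of satellite glia and Schwann cells, and 1 or 2 of 5 leukocyte markers (Cd68, and Cx3cr1 in Lam only). H3K9ac peaks lay at 1 or 2 and H3K27ac peaks at 2 or 3 of the 6 neuron starts, against 4 or 5 and 3 to 5 of the 5 glial starts. Both marks were at 0 of those 5 leukocyte starts in every list. Myh6, a heart gene included as a marker of absent tissue, had an ATAC peak at its start in SNA.

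The promoters of the 10 genes differ in base composition, and 6 are printed because they stand for the 3 states seen at the start sites below. All 10 genes matched the RefSeq promoter table (build GRCm38.p6), which gives 250 bases before and 50 bases after each start, and Lifr has 2 starts in it. The Stat3, Socs3 and Jak1 starts and both Lifr starts of that table lie inside the annotated gene bodies. The 250 bases before the start are shown 5′ to 3′ on the strand of the gene. Capitals mark matches to 3 palindromic motifs that read the same on both strands: TTCNNNGAA, the general STAT element, TTCCNGGAA, its narrower form and thus contained in it, and TGANTCA, the AP-1 element. The first 3 sequences, of Stat3 (chr11:100939541-100939790, minus strand), Socs3 (chr11:117969367-117969616, minus strand) and Il6st (chr13:112463820-112464069, plus strand), belong to starts with ATAC, H3K9ac and H3K27ac peaks in all 4 lists. The next 2, of Il6 (chr5:30012864-30013113, plus strand) and Lif (chr11:4257318-4257567, plus strand), belong to starts that were open with little or no acetylation. The last, of Cntf (chr19:12765633-12765882, minus strand), belongs to a start that was acetylated without an ATAC peak.
Stat3: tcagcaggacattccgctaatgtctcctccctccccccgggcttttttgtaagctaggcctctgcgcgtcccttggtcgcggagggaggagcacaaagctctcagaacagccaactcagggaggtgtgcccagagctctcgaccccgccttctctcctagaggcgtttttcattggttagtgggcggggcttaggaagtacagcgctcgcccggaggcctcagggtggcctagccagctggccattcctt
Socs3: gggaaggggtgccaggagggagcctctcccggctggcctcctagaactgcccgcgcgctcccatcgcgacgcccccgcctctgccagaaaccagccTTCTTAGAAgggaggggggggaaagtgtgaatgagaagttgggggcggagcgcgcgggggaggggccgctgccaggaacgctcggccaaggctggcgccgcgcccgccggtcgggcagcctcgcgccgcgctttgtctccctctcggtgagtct
Il6st: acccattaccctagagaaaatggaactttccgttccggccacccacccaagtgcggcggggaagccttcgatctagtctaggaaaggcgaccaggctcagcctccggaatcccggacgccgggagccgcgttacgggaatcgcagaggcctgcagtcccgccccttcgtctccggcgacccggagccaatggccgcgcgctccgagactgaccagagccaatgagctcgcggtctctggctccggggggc
Il6: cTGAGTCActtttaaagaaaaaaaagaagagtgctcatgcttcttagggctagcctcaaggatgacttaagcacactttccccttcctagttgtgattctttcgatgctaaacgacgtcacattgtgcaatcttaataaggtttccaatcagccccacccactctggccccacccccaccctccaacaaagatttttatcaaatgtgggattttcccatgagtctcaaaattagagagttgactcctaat
Lif: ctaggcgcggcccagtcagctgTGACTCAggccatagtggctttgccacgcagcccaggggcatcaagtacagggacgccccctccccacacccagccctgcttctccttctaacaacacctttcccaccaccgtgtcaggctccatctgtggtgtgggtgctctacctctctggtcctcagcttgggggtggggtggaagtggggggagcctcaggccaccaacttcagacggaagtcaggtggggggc
Cntf: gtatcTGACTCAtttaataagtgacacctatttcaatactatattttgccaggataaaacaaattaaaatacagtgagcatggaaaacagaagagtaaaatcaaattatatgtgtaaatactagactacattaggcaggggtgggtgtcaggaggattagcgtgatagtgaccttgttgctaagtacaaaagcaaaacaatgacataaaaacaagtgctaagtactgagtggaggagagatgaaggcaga

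Over the full 300 bases, Stat3 held 15 CpG dinucleotides, Socs3 31 and Il6st 33, whereas Il6 and Cntf held 3 each and Lif 7. The median of 21263 promoters was 13 CpG and 56.3% G or C. The richest were Lifr at its first start, with 53 CpG and 81.3% G or C, and Jak2, with 44 CpG and 81% G or C. Cntf was the most AT-rich of the group at 36.3% G or C. Socs3 alone matched the general STAT element, as TTCTTAGAA with its first base 154 bases upstream of the start, and 7.69% of all promoters hold such a match. The AP-1 element was found in the 3 cytokine genes and in no other member: TGAGTCA at 249 bases upstream in Il6, TGACTCA at 228 in Lif and TGACTCA at 245 in Cntf, against 6.99% of all promoters. TTCCNGGAA, held by 1.17% of all promoters, was found in none of the 10. A match describes the letters in this window only, and a missing match says nothing about binding elsewhere.

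**Figure D1:**
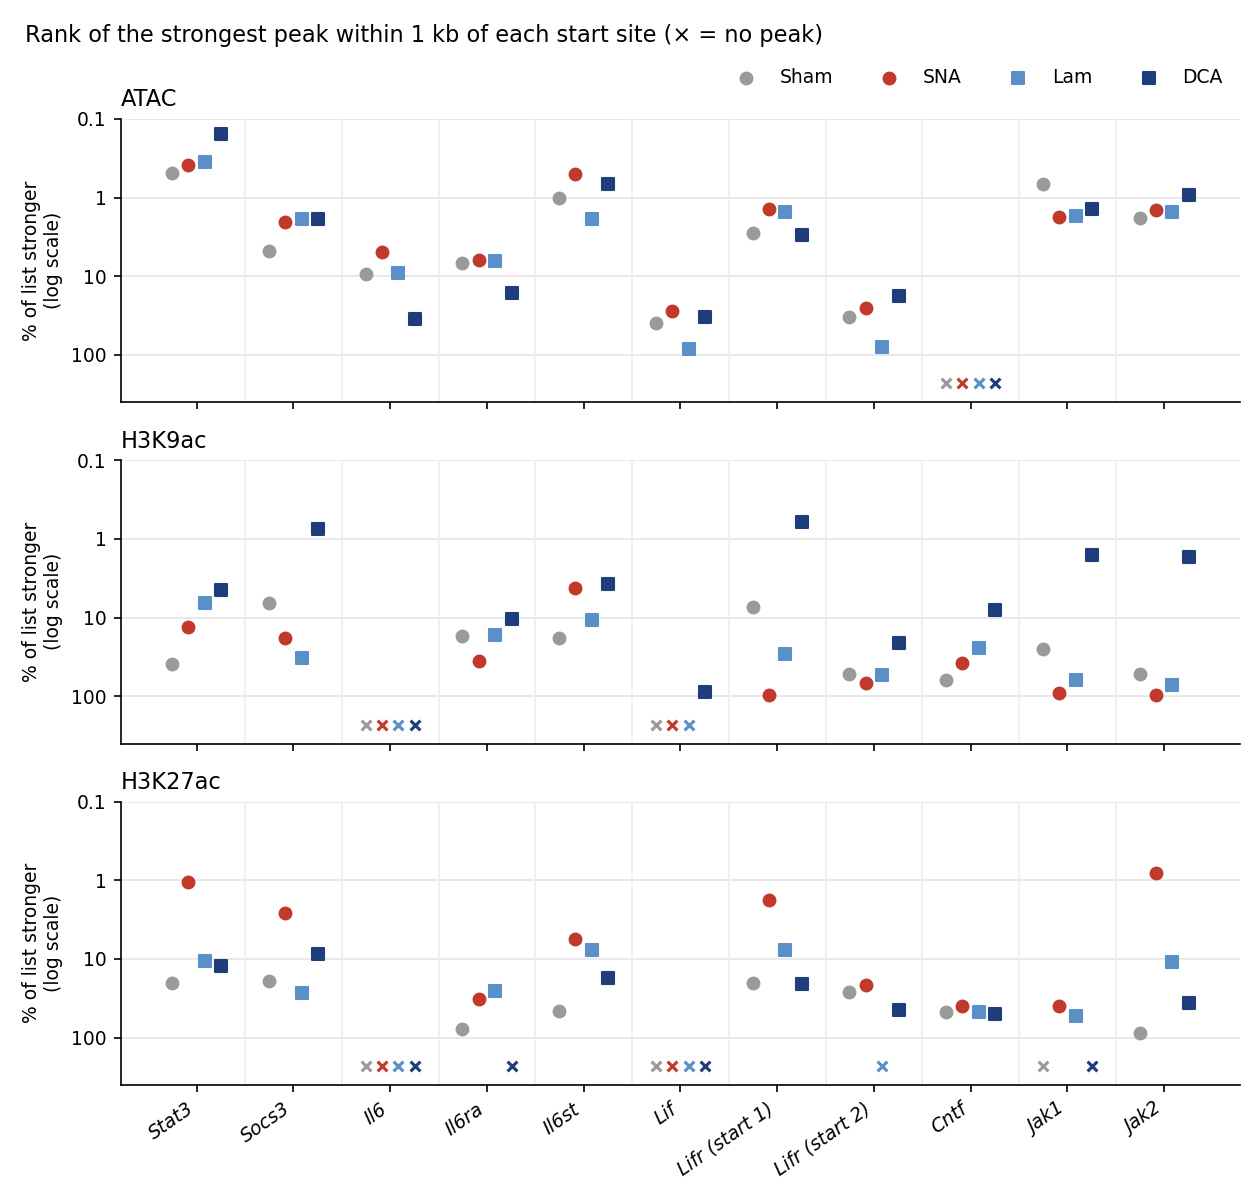
Rank of the strongest peak within 1 kb of each member's start site (start sites on the x axis, with both starts of Lifr), as the percentage of the same list with a higher −log10 p (y axis, log scale, strongest at the top), in panels for ATAC, H3K9ac and H3K27ac. Stat3 ranked within the top 0.491% of each ATAC list, Cntf had no ATAC peak but acetylation in every list, and Il6 had no acetylation in any list.

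At the start sites, 9 of the 10 genes had an ATAC peak in all 4 lists and Cntf had none in any. Among all 21263 starts, 60.6% had an ATAC peak in all 4 lists. The authors' −log10 p depends on the depth of a list, so strength is given as the share of peaks in the same list with a higher −log10 p. The lists differ in length, so this rank places a site within its own list, and no difference between surgeries is read from it. Stat3 had the highest-ranked start of the group in all 4 lists: 0.491% of the Sham list was stronger, 0.388% of SNA, 0.357% of Lam and 0.156% of DCA. Its open region spanned chr11:100938753-100940196 over the start, with an authors' fold enrichment of 6.77 in Sham, 7.31 after SNA, 6.60 after Lam and 7.50 after DCA. The Stat3 promoter was thus among the strongest open sites of the ganglion in the Sham list as well as after axotomy.

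Il6 (chr5:30013114-30019975, plus strand), the cytokine that signals through IL-6 receptor and gp130, had few peaks of any kind. Its ATAC peaks numbered 2 in Sham, 1 after SNA, 3 after Lam and 2 after DCA, and it had no H3K9ac or H3K27ac peak in any list. The single SNA peak was the one at the start, where 4.89% of the SNA list was stronger, against 9.29% in Sham, 9.19% in Lam and 35.4% in DCA. The authors' fold enrichment there was 2.73 in Sham, 3.72 after SNA, 2.63 after Lam and 2.12 after DCA. The SNA list thus had the fewest Il6 peaks, and its one peak was on the promoter. Counted in covered bases instead of peaks, SNA exceeded Sham by 149 bp.

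Lif (chr11:4257568-4272514, plus strand), which signals through LIFR and gp130, was also open with little acetylation at its start. It had 7 ATAC peaks in Sham, 9 after SNA, 7 after Lam and 7 after DCA. The start peak ranked low in its lists, with 39.2% of Sham, 27.4% of SNA, 85.4% of Lam and 33.4% of DCA peaks stronger. H3K9ac lay at the Lif start only in DCA, among the weakest peaks there, with 89.7% of the list stronger, and H3K27ac lay there in no list. Acetylated sites in the whole window were few, the start peak of DCA included. H3K9ac peaks numbered 3 in Sham, 6 after SNA, 3 after Lam and 6 after DCA, so both axotomy lists held more than their controls. With lists of equal size the H3K9ac difference between SNA and Sham was -1. H3K27ac numbered 2 in Sham, 4 after SNA, 2 after Lam and 2 after DCA. Over all 4 lists, none of the 9 merged H3K9ac regions and none of the 8 merged H3K27ac regions was present in every list, where 18.8% and 13.6% of the genome's regions were.

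Lif was the one member with H3K27me3 peaks whose authors' −log10 q reached 1.3. The Sham list had 5 of them, SNA 1, Lam 5 and DCA 0, and in the Lam list the peak at chr11:4265828-4267133, inside the gene body, was the strongest of 154055 by −log10 p (25.9, fold enrichment 2.07). The 5 Sham peaks had fold enrichments between 1.07 and 1.34 and ranked between 70 and 540 of 122953. The single SNA peak, downstream of the gene, had a fold enrichment of 1.06 and ranked 78. These enrichments are low, and sites around Lif were listed with it: of the 100 strongest H3K27me3 peaks of each list, 45 in Sham, 52 after SNA, 68 after Lam and 5 after DCA lay within 1 Mb of the gene. Why the strongest peaks gather there was not tested, mapping and input included. The DCA list had 43 peaks in the whole genome at a −log10 q of 1.3, against 1613 in Sham, 220 in SNA and 916 in Lam. Of these, 1 in DCA lay within 1 Mb of Lif, beside 74 in Sham, 57 in SNA and 95 in Lam. Why DCA had 0 at Lif was not tested.

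Cntf (chr19:12763528-12765632, minus strand), a neurotrophic cytokine made by Schwann cells, had no ATAC peak in any list but carried both acetylation marks at its start in all 4. Whether the missing ATAC peaks reflect closed chromatin or a gap in the ATAC lists was not tested. The strongest H3K9ac peak there ranked below 62.7% of the list in Sham, 37.9% after SNA, 24.6% after Lam and 7.98% after DCA. For H3K27ac there, between 39.6% (SNA) and 50% (DCA) of the list was stronger. In the window, H3K9ac peaks numbered 1 in Sham, 3 after SNA, 5 after Lam and 6 after DCA. H3K27ac peaks numbered 2 in Sham, 8 after SNA, 3 after Lam and 2 after DCA, so SNA stood apart from the other 3 lists. Part of that count lay in Zfp91, the zinc finger gene just upstream, and the gene table also lists a noncoding gene, Gm44505, across both. With peaks in other genes left out, the difference between SNA and Sham went from 6 to 2 peaks.

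Among the receptor chains, Il6ra (chr3:89869324-89913196, minus strand), the IL-6 binding chain, had 15 ATAC peaks in Sham, 17 after SNA, 18 after Lam and 18 after DCA. Its H3K27ac peaks numbered 5 in Sham, 20 after SNA, 18 after Lam and 10 after DCA, and its H3K9ac peaks 10, 13, 5 and 24 in the same order. Sham had the fewest H3K27ac peaks and DCA the most H3K9ac peaks, while ATAC counts lay between 15 and 18. At the start, H3K27ac was present in Sham, SNA and Lam and missing in DCA, and H3K9ac was present in all 4 lists.

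Il6st (chr13:112464070-112506860, plus strand) encodes gp130, the signalling chain the family shares. It had 8 ATAC peaks in Sham, 10 after SNA, 8 after Lam and 8 after DCA. Its start ranked among the strongest, with 1.02% of Sham, 0.508% of SNA, 1.88% of Lam and 0.67% of DCA peaks stronger. H3K9ac peaks numbered 3, 6, 5 and 8 in Sham, SNA, Lam and DCA, and H3K27ac peaks 4, 6, 7 and 6. The Il6st start was open and acetylated in every list, and its ATAC number differed by at most 2 peaks between lists.

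Lifr (chr15:7090610-7197489, plus strand), the receptor chain for LIF and, with a further chain, for CNTF, had the most peaks of the group in the ATAC, H3K9ac and H3K27ac lists. ATAC peaks numbered 24 in Sham, 36 after SNA, 26 after Lam and 26 after DCA. H3K9ac peaks numbered 25 in Sham, 39 after SNA, 28 after Lam and 45 after DCA. H3K27ac peaks numbered 22 in Sham, 48 after SNA, 33 after Lam and 23 after DCA. SNA exceeded Sham in all 3 assays, whereas DCA exceeded Lam in H3K9ac alone, and with lists cut to equal size that last difference was -10 peaks. The window is long (127 kb), and per 10 kb the Sham ATAC count was 1.89 and the SNA count 2.84, against a median of 0.917 per 10 kb over all genes in Sham. Acetylation was the denser departure from other genes: 1.97 H3K9ac and 1.73 H3K27ac peaks per 10 kb in Sham, against medians of 0.254 and 0.21. Part of Egflam, the gene beside it, lies in the Lifr window, and with peaks in other genes left out the difference in H3K27ac between SNA and Sham was 24 peaks instead of 26.

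**Figure D2:**
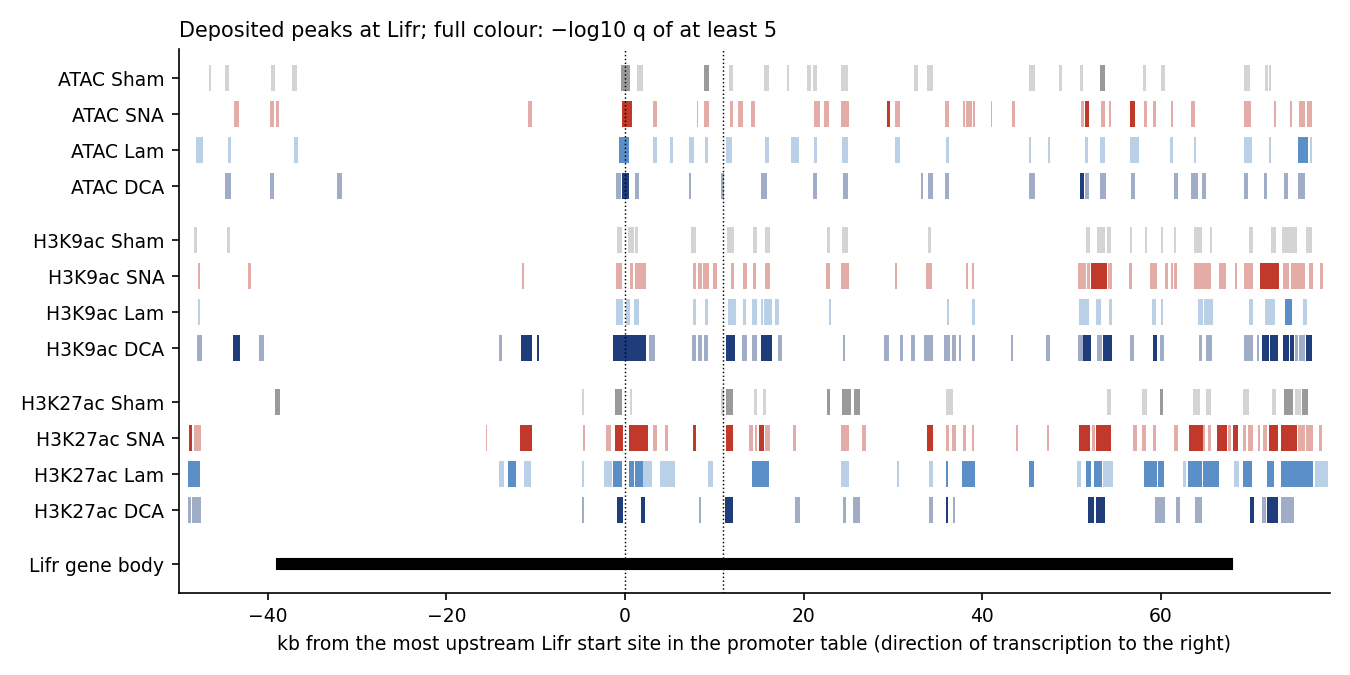
Deposited ATAC, H3K9ac and H3K27ac peaks in the Lifr window, 1 row per list, by distance in kb from the upstream Lifr start site of the promoter table (x axis), with full colour for an authors' −log10 q of at least 5 and dotted lines at both starts. Every row has a peak within 1 kb of the upstream start, and the SNA rows hold 36 ATAC, 39 H3K9ac and 48 H3K27ac peaks.

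The 4 ATAC lists merged into 60 Lifr regions, of which 5 (8.33%) were in all 4 lists and 33 (55%) in only 1, where the genome had 10% and 59.7%. Of the 60, 25 were in SNA and not in Sham, and 14 were in Sham and not in SNA. The genome had 100326 and 80023 such regions. In neither Lam nor DCA were 17 of the 25 (68.0%), where the genome had 59.0%. Acetylation lay on most of them: 20 of the 25 (80.0%) overlapped an H3K9ac or H3K27ac peak of SNA, and of all 35 Lifr regions in SNA the share was also 80.0%. Over the genome 10.9% of the regions in SNA and not in Sham did. The strongest was chr15:7181106-7181564, 51.8 kb downstream of the first start and inside the gene body, with an authors' −log10 p of 14.1 and fold enrichment of 2.81 in SNA. It was also listed in Lam (5.91) and DCA (7.33), and it carried H3K9ac and H3K27ac in SNA. The next, chr15:7186120-7187125 (11.7, fold enrichment 2.51), was likewise in SNA, Lam and DCA, and chr15:7158860-7159266 (8.54, fold enrichment 2.36) was in SNA alone and had no acetylation there. The 25 had a median −log10 p of 4.78, beside 4.60 for the 100326 such regions of the genome. A −log10 q of 5 was reached by 3 of the 25 and by 8648 over the genome.

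The first Lifr start, CpG-rich, ranked above all but 2.80% of Sham, 1.42% of SNA, 1.52% of Lam and 2.96% of DCA ATAC peaks. The second start, with 4 CpG, stood at 32.6%, 25.7%, 79.1% and 18.1%. For H3K9ac at the first start, 0.61% of the DCA list was stronger, 7.27% of Sham, 29.5% of Lam and 97.9% of SNA. H3K27ac at the first start stood at 1.78% in SNA, 7.81% in Lam, 20.4% in Sham and 20.8% in DCA.

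Jak1 (chr4:101151974-101265282, minus strand), a kinase bound to gp130, had 18 ATAC peaks in Sham, 19 after SNA, 16 after Lam and 13 after DCA. H3K9ac peaks numbered 4, 12, 8 and 10 in Sham, SNA, Lam and DCA, and H3K27ac peaks 3, 5, 5 and 3. With lists of equal size both acetylation differences between SNA and Sham turned to -1 peak. Its start was open in every list (0.675% of Sham, 1.76% of SNA, 1.74% of Lam and 1.40% of DCA stronger). H3K27ac was listed at that start only in SNA and Lam, where the peak was of middle rank (39.6% and 52.6% stronger).

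Jak2 (chr19:29251803-29313095, plus strand), the related kinase, had few peaks outside its CpG-rich start: ATAC peaks numbered 3 in Sham, 5 after SNA, 6 after Lam and 7 after DCA. Of the H3K27ac lists, 0.816% was stronger than its start peak in SNA, in Lam 10.8%, in DCA 36.2% and in Sham 87.8%. H3K27ac peaks in the window numbered 1 in Sham, 5 after SNA, 4 after Lam and 1 after DCA, so Sham and DCA were low and SNA and Lam high. For H3K9ac at the same start, 1.70% of DCA was stronger, 51.7% of Sham, 96.3% of SNA and 71.2% of Lam.

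Stat3 (chr11:100886806-100939594, minus strand), the transcription factor at the end of the pathway, differed most in ATAC peak number. ATAC peaks numbered 7 in Sham, 20 after SNA, 15 after Lam and 9 after DCA. SNA held 13 more than Sham, and 223 protein-coding genes had a difference at least that large, while Lifr with 12 more stood among 277. Lam, a surgery without axotomy, was also high, with 8 more than Sham, and DCA had 6 fewer than Lam. H3K9ac peaks numbered 10 in Sham, 12 after SNA, 5 after Lam and 23 after DCA, so the DCA list was the high one for this mark. The lower count in Lam than in Sham turned to 3 more when peaks under a −log10 q of 1.3 were left out. H3K27ac peaks numbered 5 in Sham, 10 after SNA, 12 after Lam and 10 after DCA, with Sham alone low.

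**Figure D3:**
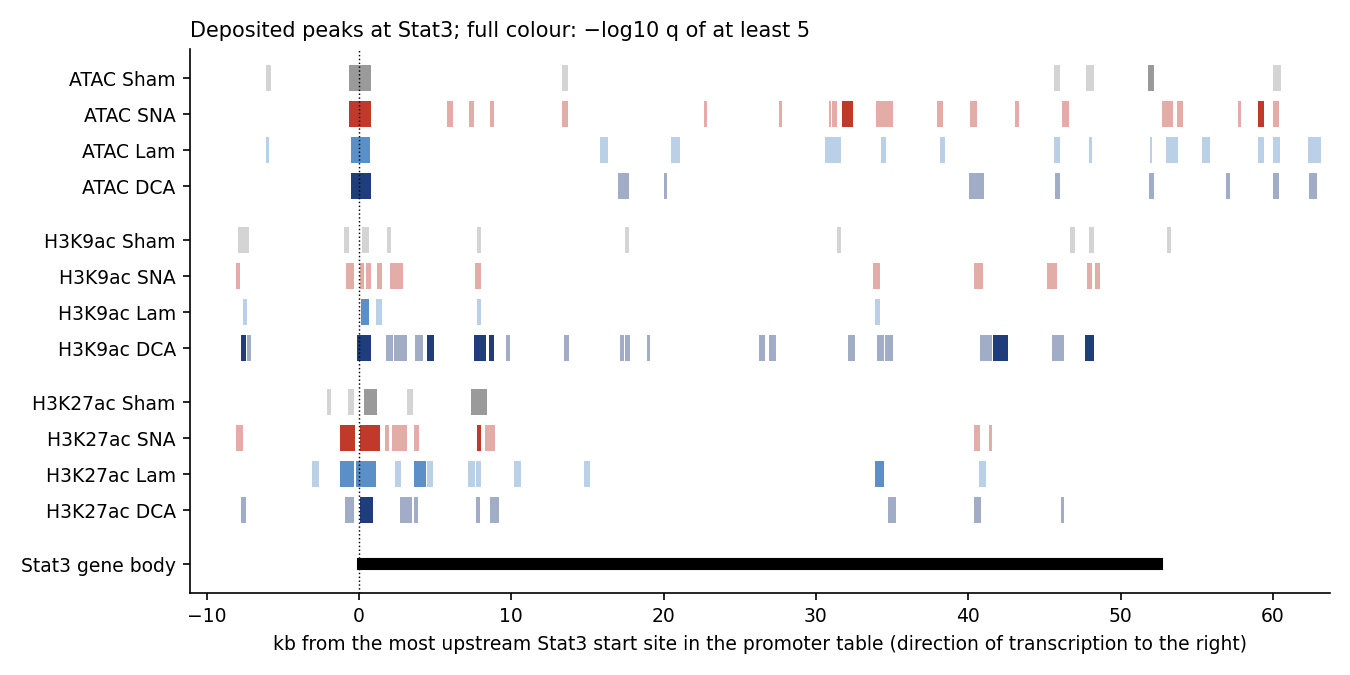
Deposited ATAC, H3K9ac and H3K27ac peaks in the Stat3 window, 1 row per list, by distance in kb from the Stat3 start site (x axis, transcription to the right), with full colour for an authors' −log10 q of at least 5. The start site is open in all 4 lists, and of 20 ATAC peaks in SNA only 3 are in full colour.

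The added Stat3 peaks lay in the gene body and beyond its end, away from the promoter. Of 29 merged ATAC regions, 2 were in all 4 lists, 15 were in SNA and not in Sham, and 4 were in Sham and not in SNA. Of those 15, 9 were in SNA alone, 5 also in Lam and 1 also in DCA. The authors' −log10 p of the 15 in SNA ran from 3.21 to 8.30 with a median of 4.90, beside 4.60 for such regions over the genome. A −log10 q of 5 was reached by 2 of the 15 and by 8648 of the genome's 100326. Of all ATAC peaks at Stat3, 11 of the 20 in SNA were below the median of the whole SNA list (4.95). The strongest were chr11:100907119-100907833 (8.30, fold enrichment 2.29), 32.1 kb into the gene body, chr11:100880092-100880526 (7.73, fold enrichment 2.10), past the gene's end and within Stat5a, and chr11:100896204-100896485 (6.67, fold enrichment 2.06), 43.2 kb into the gene body. None of these 3 carried H3K9ac or H3K27ac in SNA. Of the 15 regions, 3 (20.0%) overlapped an SNA acetylation peak, beside 10.9% of such regions over the genome and 20 of 25 at Lifr. With peaks of a −log10 q of at least 5 alone, Stat3 had 2 ATAC peaks in Sham, 3 after SNA, 1 after Lam and 1 after DCA.

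Stat5a, which encodes a related factor, reaches into the Stat3 window, and 4 of the Stat3 peaks in Sham, 6 after SNA, 8 after Lam and 5 after DCA were counted for both genes. In the Stat3 gene body alone the counts were 5 for Sham, 15 for SNA, 9 for Lam and 6 for DCA, so the surgeries kept their order. Stat5b, the next gene of the cluster, shared no peak with Stat3 and had 12 ATAC peaks in Sham, 24 after SNA, 17 after Lam and 15 after DCA.

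Acetylation at the Stat3 start was present in every list. For H3K27ac, 1.04% of the SNA list was stronger, against 20.4% in Sham, 10.7% in Lam and 12.4% in DCA, with fold enrichments of 8.38, 5.43, 5.64 and 6.75. For H3K9ac, 4.46% of DCA, 6.52% of Lam, 13.3% of SNA and 39.0% of Sham were stronger. Within its own list, the start was thus among the strongest H3K27ac sites in SNA and among the stronger H3K9ac sites in DCA and Lam. No difference between surgeries is read from these ranks.

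Socs3 (chr11:117966079-117970336, minus strand), the inhibitor, has a short gene body (4.26 kb) and a dense window. ATAC peaks numbered 4 in Sham, 7 after SNA, 7 after Lam and 5 after DCA. At the start, 4.75% of Sham was stronger, against 2.03% of SNA, 1.89% of Lam and 1.85% of DCA, with authors' fold enrichments of 2.88, 3.90, 3.90 and 3.78. This is the promoter that holds the STAT element printed above, and it was open in all 4 lists. H3K9ac peaks numbered 10, 13, 9 and 14 in Sham, SNA, Lam and DCA, and H3K27ac peaks 9, 14, 16 and 8. Per 10 kb, Socs3 had 4.12 H3K9ac and 3.71 H3K27ac peaks in Sham, the highest densities of the group. All 4 of its ATAC regions in SNA and not in Sham overlapped SNA acetylation, where 10.9% of such regions over the genome did, and 3 of them were in SNA alone. The strongest 3 of the 4 also overlapped an H3K27ac peak of Sham.

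**Figure D4:**
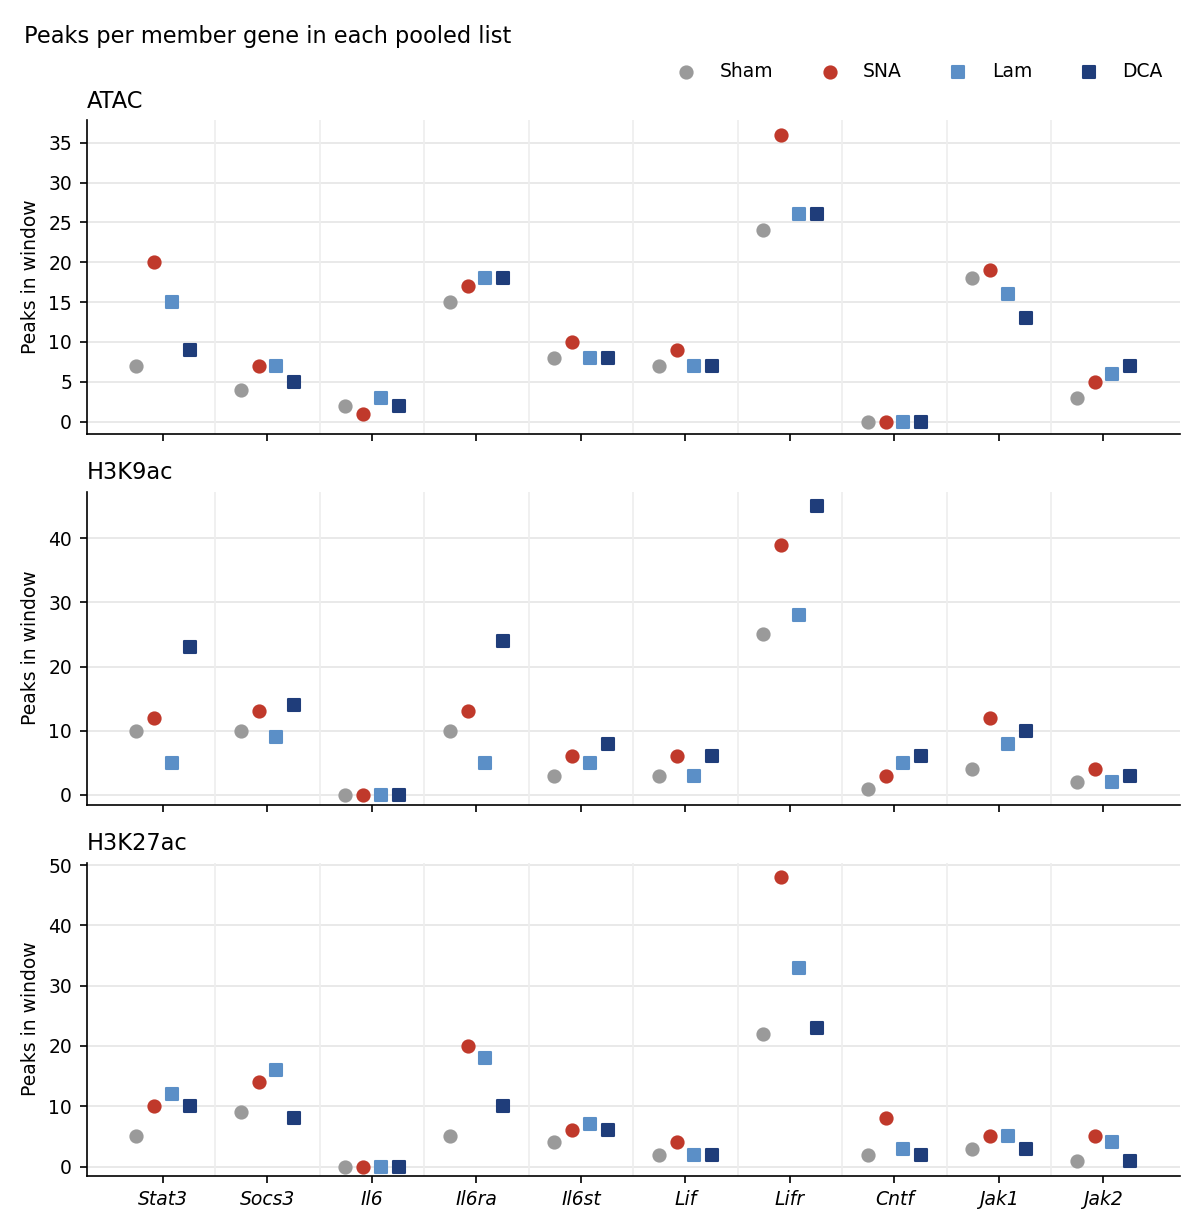
Peaks of each member gene (x axis) in the gene body and the 10 kb on either side (y axis, number of peaks), in panels for ATAC, H3K9ac and H3K27ac, with 1 point per pooled list. In SNA Stat3 has 20 and Lifr 36 ATAC peaks, the DCA points are highest for H3K9ac at Stat3 (23), Il6ra (24) and Lifr (45), and the SNA point is highest for H3K27ac at Lifr (48).

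Summed over the 10 genes, ATAC peaks numbered 88 in Sham, 124 after SNA, 106 after Lam and 95 after DCA. The log2 ratio of SNA to Sham was 0.49 beside 0.19 for the whole lists, a comparison on which members were chosen. Without Stat3 and Lifr the counts were 57 in Sham and 68 in SNA and the log2 ratio was 0.25. The ratio of DCA to Lam was -0.16 (95% interval -0.57 to 0.26) beside 0.06 for the whole lists, and that of Lam to Sham 0.27 (-0.15 to 0.69) beside 0.04. The Sham counts were part of how Stat3 and Lifr were chosen, so the ratio of Lam to Sham is a description only. Without those 2 genes the counts were 57 in Sham and 65 in Lam. The intervals are exact Clopper-Pearson intervals of the share of peaks in 1 list, and they cover counting error only. Peaks that reached a −log10 q of 5 gave -0.39 for the ratio of Lam to Sham. The comparisons of SNA and of Lam share the Sham list, and those of DCA and of Lam share the Lam list.

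A gene was counted as higher or lower when the ratio of its peak numbers, each with 1 added, was 1.5-fold or more, and this was set beside the same share over all genes with a peak in the assay. In ATAC, 9 members had a peak and Cntf had none. In SNA against Sham, 3 were higher (Stat3, Socs3 and Jak2) and Il6 was lower, where 24.1% of genes were higher and 11.2% lower. Lifr, with a log2 ratio of 0.57, lay just under that fold, and Jak2, with 0.58, just on it. In DCA against Lam none was higher and Stat3 was lower, where 17% and 14.6% of genes were. In Lam against Sham 3 were higher (Stat3, Socs3 and Jak2) and none lower, where 20% and 15.4% of genes were. The median log2 ratio of the members in SNA against Sham was 0.32, and that of all genes 0.14. Stat3 and Lifr were chosen on this comparison. Without them 2 of 7 were higher and 1 lower in SNA against Sham, with a median of 0.29. In Lam against Sham 2 of the 7 were higher and 0 lower.

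For H3K27ac the members summed to 53 peaks in Sham, 120 after SNA, 100 after Lam and 65 after DCA, so SNA and Lam were high and Sham and DCA low. Il6 had no H3K27ac or H3K9ac peak, which leaves 9 members. In SNA against Sham 8 of the 9 were higher, all but Il6st, and none was lower, where 48.3% of genes were higher and 12.9% lower. The log2 ratio of the sums was 1.18 (0.70 to 1.67), an interval that holds the whole-list value of 0.79. In DCA against Lam none was higher and 4 were lower (Socs3, Il6ra, Jak1 and Jak2), where 9.58% and 37.4% of genes were, and the ratio was -0.62 (-1.09 to -0.16) beside -0.53 for the whole lists. In Lam against Sham 6 were higher (Stat3, Socs3, Il6ra, Il6st, Jak1 and Jak2) and none lower, where 42.4% and 10.5% of genes were, and the ratio was 0.92 (0.42 to 1.42) beside 0.62. The median log2 ratios of the members were 0.87, -0.50 and 0.68 in these comparisons, and those of all genes 0.49, -0.26 and 0.42. All 3 whole-list ratios fall inside the members' intervals, and list size moved with each of these counts. When each list was cut to the size of the shortest by −log10 p, the ratios were 0.25, -0.14 and 0.29.

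For H3K9ac the sums were 68 in Sham, 108 after SNA, 70 after Lam and 139 after DCA, so both axotomy lists were high. In SNA against Sham 6 of 9 were higher (Il6st, Lif, Lifr, Cntf, Jak1 and Jak2) and none lower, where 35% and 8.36% of genes were, and the log2 ratio was 0.67 (0.22 to 1.13) beside 0.57 for the whole lists. In DCA against Lam 6 were higher (Stat3, Socs3, Il6ra, Il6st, Lif and Lifr) and none lower, where 50.1% and 6.37% of genes were, and the ratio was 0.99 (0.57 to 1.43) beside 0.82. With lists of equal size these ratios were 0.082 and -0.087, so the second turned its direction. The members' median of 0.58 in DCA against Lam equalled that of all genes. In Lam against Sham 3 were higher (Il6st, Cntf and Jak1) and 2 lower (Stat3 and Il6ra), where 21.4% and 19.8% of genes were. Sham had the fewest peaks at these genes for both acetylation marks, while DCA had the most for H3K9ac and SNA the most for H3K27ac, and the whole lists stood in the same places.

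**Figure D5:**
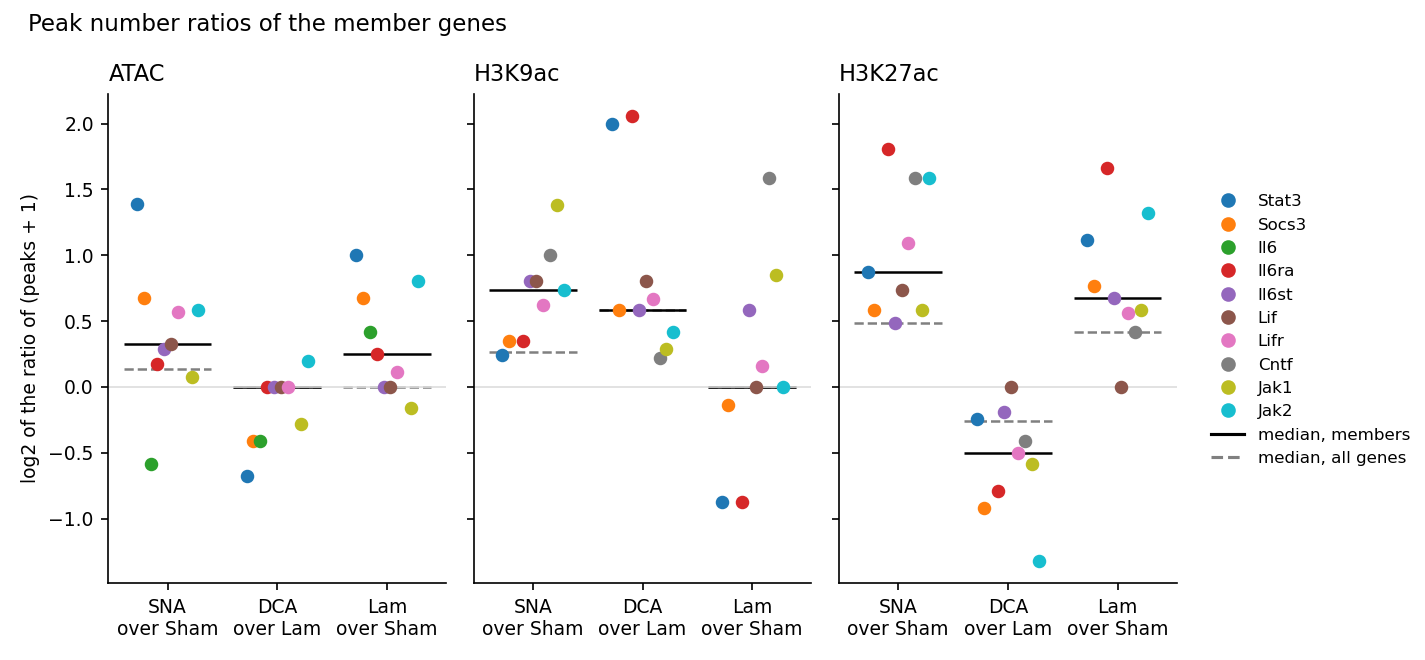
Log2 ratio of (peaks + 1) for each member gene (points, coloured by gene) in SNA over Sham, DCA over Lam and Lam over Sham, in panels for ATAC, H3K9ac and H3K27ac. Solid lines are the members' medians and dashed lines the medians of all genes with a peak: for H3K27ac the members' median is 0.87 after SNA and -0.50 after DCA, beside 0.49 and -0.26 for all genes.

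H3K27me3 peaks were few at these genes, 24 in Sham, 15 after SNA, 22 after Lam and 6 after DCA, and those outside Lif had a −log10 q under 1.3. In SNA against Sham 2 members were higher (Il6 and Cntf) and 4 lower (Stat3, Il6st, Lif and Jak2), where 26.6% and 30.7% of genes were. In DCA against Lam 2 were higher (Il6 and Il6st) and 4 lower (Stat3, Il6ra, Lif and Lifr), where 8.34% and 63.5% of genes were, and in Lam against Sham 2 were higher and 3 lower, where 42.2% and 17.2% of genes were. Socs3 had no H3K27me3 peak in any list.

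At the other members the strongest ATAC region in SNA and not in Sham was as follows. Il6st had chr13:112503028-112503273 in the gene body, 39.1 kb from the start, with a −log10 p of 11.9, in SNA alone and without acetylation in any list. Lif had chr11:4279531-4280513 downstream of the gene (8.29), which was also in Lam and DCA and was acetylated in SNA. Il6ra had chr3:89897163-89897644 in the gene body (6.80), acetylated in SNA and also open in DCA. Socs3 had chr11:117978032-117978457, 8.9 kb upstream of the start (6.77), in SNA alone and with H3K9ac in SNA and DCA and H3K27ac in Sham and Lam. Jak2 had chr19:29318831-29319315 downstream (6.46), in SNA alone and without acetylation in any list. Jak1 had chr4:101202696-101203117 in the gene body (6.28), also in DCA, which overlapped H3K27ac in Sham, Lam and DCA but no acetylation peak of SNA. Acetylation at these sites thus differed from gene to gene, and Il6 and Cntf had no such region.

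Across the windows of the 10 genes, 75 merged ATAC regions were in SNA and not in Sham, and 41 were in Sham and not in SNA. The genome had 100326 and 80023 such regions. In neither Lam nor DCA were 45 of the 75 (60%), where the genome had 59.0%. Of the 75, 33 (44.0%) overlapped an SNA acetylation peak, and 20 of these 33 were at Lifr. The 26 member regions present in all 4 lists were acetylated in SNA in 61.5% of cases, beside 48.6% of such regions in the genome. The 26 regions in all 4 lists were stronger, with a median −log10 p in SNA of 7.46 against 4.79 for the 75.

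Of 22 other genes of the gp130 pathway, 21 had an ATAC peak. The exception was Clcf1, which like Cntf had acetylation without an ATAC peak in any list. Its H3K9ac peaks numbered 3, 8, 6 and 14 in Sham, SNA, Lam and DCA, and its H3K27ac peaks 6, 4, 8 and 4. In SNA against Sham 6 were higher: the receptor chains Il11ra1 and Lepr, the cytokine subunit Ebi3, the factor Stat5b and the inhibitors Socs1 and Socs2. Lepr, the leptin receptor, went from 1 ATAC peak in Sham to 6 in SNA. In DCA against Lam none was higher and 5 were lower, among them the inhibitor Cish (13 in Lam, 5 in DCA) and the oncostatin M receptor Osmr (10 and 5). The shares of all genes there were 17% higher and 14.6% lower. For H3K27ac, 8 of 21 were higher and 3 lower in SNA against Sham, where 48.3% and 12.9% of all genes were. In DCA against Lam 1 was higher and 10 lower, where 9.58% and 37.4% of all genes were. For H3K9ac, 8 were higher and 1 lower in SNA against Sham, where 35% and 8.36% of all genes were. In DCA against Lam 11 were higher and 2 lower, where 50.1% and 6.37% of all genes were. Cntfr, the CNTF receptor chain, had 1 H3K9ac peak in Lam and 15 in DCA. Of 15 genes known as STAT3 targets, among them Myc, Fos and Bcl3, 1 was higher and none lower in ATAC in SNA against Sham: Ccnd1, the cell cycle gene for cyclin D1, with 4 peaks in Sham and 8 in SNA. Of all genes, 24.1% were higher and 11.2% lower. The targets' median log2 ratio in that comparison was 0, below the 0.14 of all genes.

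By Euclidean distance over log2 peak numbers (with 1 added) in the 12 ATAC and acetylation lists, the genes most like Stat3 were Gnb1 (distance 1.25), Nectin1 (1.26) and Cmtm4 (1.31). Gnb1 had 7 ATAC peaks in Sham, 17 after SNA, 15 after Lam and 11 after DCA. Those most like Lifr included Crtc3 (0.52) and Retreg1 (0.62), and Retreg1 had 18 H3K27ac peaks in Sham, 48 after SNA, 38 after Lam and 26 after DCA.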

How the data were processed

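The authors deposited 1 peak list per assay and surgery, and per the labels each pools the replicates of a condition: 3 ATAC samples, or 2 ChIP samples with inputs. Each deposited peak carries a ratio (fold enrichment), a −log10 p and a −log10 q by the authors. The submitters' processing notes name the build mm10; the aligner, peak caller and settings are not given in the sources used here. Read depth is unknown, so precision rests on peak numbers, and H3K27me3 lists hold mostly peaks with a −log10 q under 1.3.

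Samples were grouped by their labels. The ATAC lists repeat an interval once per summit; such repeats were collapsed to the highest −log10 p. Peaks overlapping a gene body or 10 kb on either side by 1 bp were counted per gene with Python 3.11.15, numpy 2.4.6, pandas 2.3.3 and scipy 1.17.1, and plotted with matplotlib 3.10.9. Lists were compared by ratios of peak numbers (1 peak added for single genes, calls at 1.5-fold or more) and exact 95% Clopper-Pearson intervals. The counting scripts were tested on simulated data. Against the mm10 peaks, 61% of 21263 RefSeq start sites lay within 100 bp of an ATAC peak, and at most 6.91% after moving the starts by 10000 or 100000 bp, so GRCm38 coordinates were used with the files.

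All 10 members were named, with at most 3 ATAC regions per gene that were in SNA and not in Sham, strongest first, and the regions over start sites present in all 4 lists. The members, gene lists and motifs were chosen with earlier results of these data known. Of the marker genes, those missing from the promoter table were left out. The alternatives were other windows, stricter −log10 q, equal list sizes, peak midpoints, covered base pairs and omission of peaks or genes. Exons were not assigned, and peak sequences were not used here. Some results for single genes outside the 10 members are not reported here.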

Additional observations from a re-analysis of the deposited data

Results flagged for a closer look

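For 6 combinations of gene and assay, SNA and DCA differed by 1.5-fold or more in opposite directions, each against its own control list. With 1 pooled list per surgery, none of these differences between the axotomies was tested. Stat3 had 13 more ATAC peaks in SNA (20) than in Sham (7), and 6 fewer in DCA (9) than in Lam (15), so the Lam list lay above Sham by 8. This ATAC difference is part of how Stat3 was chosen.

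The other entries for H3K27ac were 4 genes. Il6ra had 15 more peaks in SNA than in Sham (20 and 5) and 8 fewer in DCA than in Lam (10 and 18). Socs3 had 5 more in SNA (14 and 9) and 8 fewer in DCA (8 and 16). Jak2 had 4 more in SNA (5 and 1) and 3 fewer in DCA (1 and 4). Jak1 had 2 more in SNA (5 and 3) and 2 fewer in DCA (3 and 5). In all 4 the Lam count was above Sham, as it was for the whole H3K27ac lists.

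Il6st went the other way for H3K27me3: SNA had 0 peaks and Sham 3, a difference of -3, and DCA had 1 and Lam 0, a difference of 1. All of these peaks had a −log10 q under 1.3.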

How the results depend on the processing

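No paired analysis was possible because each deposited list pools the replicates of a surgery, and for the same reason no replicate could be left out. Of 103 alternatives to the summed log2 ratios, 90 stayed within the interval of the ratio as reported, and 5 more gave no value because a sum was 0. With lists of equal size (the strongest peaks of each), H3K9ac reversed to -0.087 for DCA over Lam, and its ratio of SNA to Sham was 0.082. H3K27ac with equal sizes was 0.25 (SNA to Sham), -0.14 (DCA to Lam) and 0.29 (Lam to Sham). At a −log10 q of at least 1.3, H3K9ac was 1.61 (SNA to Sham) and 0.83 (Lam to Sham), and H3K27me3 was -2.32 for SNA over Sham. At a −log10 q of at least 5, ATAC was -0.39 for Lam over Sham, H3K9ac 3.70 for DCA over Lam, and H3K27ac 0.61 (SNA to Sham) and -1.10 (DCA to Lam). By covered base pairs, H3K9ac was 1.44 for DCA over Lam. The ATAC ratio of SNA over Sham ran from 0.25 (without Stat3 and Lifr) to 0.66. Leaving out those 2 genes and leaving out peaks in other genes were alternatives chosen after seeing the data.

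Of 864 alternatives for single genes, 654 kept direction and side of the 1.5-fold limit, 117 fell short of it, 78 reached it and 15 reversed. For Stat3, Lam minus Sham was -1 ATAC peak at a −log10 q of 5, and 3 (at 1.3) and 1 (at 5) H3K9ac peaks; with equal list sizes H3K27me3 was 1 for DCA minus Lam and -1 for Lam minus Sham. Il6 covered 149 bp more ATAC sequence in SNA than in Sham although it had 1 peak fewer, and its H3K27me3 difference was -1 in the gene body (SNA minus Sham) and -1 within 50 kb (DCA minus Lam). Il6ra H3K9ac was 2 for Lam minus Sham at a −log10 q of 1.3, and Cntf H3K27me3 -1 for SNA minus Sham within 50 kb. With equal list sizes H3K9ac was -1 at Lif and -1 at Jak1 for SNA minus Sham, and -10 at Lifr for DCA minus Lam; H3K27ac at Jak1 was -1, and -2 at a −log10 q of 5, for SNA minus Sham. The causes of these shifts were not tested.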
